A study of Mus musculus with 12 samples.

Results

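The comparison described here sets the livers of mice given L.J. against those of untreated controls, for every gene with at least 1 FPKM in 3 or more of the 6 libraries compared. FPKM scales the sequenced fragments of a gene by transcript length and by library size. The rule kept 10470 of the 21004 genes in the deposited table. All mice were ICR, an outbred strain, aged 8 weeks, and liver RNA was sequenced. The control group held 3 libraries with no agent in the labels, and the L.J. group held 3 libraries with L.J. at 10 mg/kg and no busulfan. A further 6 libraries, 3 with busulfan and 3 with busulfan plus L.J. at 10 mg/kg, entered the model to steady its estimate of spread. What L.J. abbreviates is not given in the labels, the design text of the series mentions FMT without tying it to L.J., and sex, route and duration are not labelled. Separate animals are not stated for the replicates, so every p-value below measures the spread between these samples, which may be technical.

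The liver secretes most plasma proteins, and inflammatory cytokines such as IL-6 make hepatocytes raise a set of them, the acute-phase proteins, through STAT3, C/EBP and NF-kB factors. Hepatocytes also carry out lipid oxidation, bile acid synthesis and the chemical modification of foreign compounds by cytochrome P450 and sulfotransferase enzymes. In mice many of these enzymes differ between the sexes through the pattern of growth hormone secretion.

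The 3 L.J. libraries were not alike, and whether the label or the exposure of L.J. replicate 2 was as stated was not tested. Group means and calls below keep it as labelled. In a principal component analysis of the 6 libraries, the first component held 60.1% of the variance, and L.J. replicates 1 and 3 lay at 36.5 and 45 on it. L.J. replicate 2 lay at -13.6, between control replicate 1 at -11.2 and control replicates 2 and 3 at -30.1 and -26.6. Across the genes tested, the log2(FPKM + 1) values of L.J. replicate 2 correlated with control replicates 2 and 3 at 0.979 and 0.982, above its correlations of 0.952 and 0.941 with L.J. replicates 1 and 3. The share of summed FPKM held by the 21 major urinary protein (Mup) genes was 11.7%, 35.4% and 29.2% in control replicates 1, 2 and 3, and 1.36%, 23.9% and 0.0956% in L.J. replicates 1, 2 and 3. FPKM values are shares of a library, so a gene group of this size moves the values of all others. The Y-linked gene Ddx3y lay between 12.18 and 18.31 FPKM in all 6 libraries, so all held RNA with Y-linked transcripts. Sequencing depth is unknown, and no interval for counting error is given.

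With limma on log2(FPKM + 1), 43 of the 10470 genes passed an adjusted p of 0.05, which is 0.411% of the genes tested. Of these, 35 rose with L.J. (0.334% of genes) and 8 fell (0.0764%), and in all 43 the 3 L.J. values lay outside the range of the 3 control values. Over all genes, 1880 (18.0%) were higher in every L.J. library than in any control library and 303 (2.89%) were lower in every one. The L.J. values were shifted as a whole: 8080 genes were higher and 2390 lower, with a median log2 fold change of 0.17. Scaling each library to the same median took out that shift and gave 114 calls, 47 higher (0.449%) and 67 lower (0.640%), so the share of calls that were higher went from 81.4% to 41.2%. Of the 43 genes, 35 also passed after the scaling, 27 of the rises and all 8 falls. Removing the Mup genes and rescaling gave 90 calls, 39 higher and 51 lower.

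The calls depended on which libraries were in the model. In the 6 control and L.J. libraries alone, limma called 0 genes, with 1570 genes (15.0%) under an unadjusted p of 0.05 against 2451 (23.4%) with all 12 libraries. The smallest adjusted p there was 0.177, shared by B4galt1, Onecut1, Prkd3, Tfrc and Etnppl among others. Leaving out L.J. replicate 2 gave 1755 calls, among them all 43. Leaving out L.J. replicate 1 gave 20 and L.J. replicate 3 gave 5, which were Sult3a1, A1bg, Prkd3, Sult3a2 and Etnppl. Leaving out control replicate 1 gave 74, control replicate 2 gave 5 (Prkd3, Trmt13, Ndrg1, Fam89a and Syne4) and control replicate 3 gave only Tfrc. Every statement below that a gene rose or fell therefore rests on the fit to all 12 libraries, and 0 of the 43 passed in each of the 6 fits with a library left out. The plot of fold change against mean level shows how few genes stood past the threshold beside the many that did not.

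**Figure D1:**
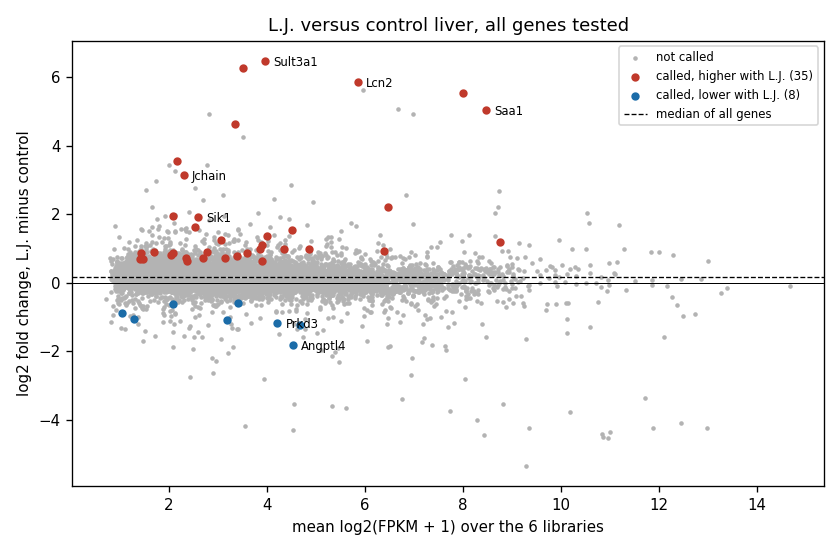
Fitted log2 fold change (L.J. minus control, y axis) against the mean log2(FPKM + 1) over the 6 libraries (x axis) for the 10470 genes tested, with 35 called rises in red and 8 called falls in blue. The dashed line is the median of all genes at 0.17, and many genes with shifts as large as the called ones were not called.

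The largest rises with a known inflammatory link were in Saa1, Saa2 and Lcn2. Saa1 and Saa2 encode serum amyloid A, an apolipoprotein of high density lipoprotein made in the acute-phase response, and Lcn2 encodes lipocalin 2, which binds bacterial siderophores. Their promoters are shown because these genes moved together in each library, and the windows before the start site come from RefSeq on GRCm38.p6, 5′ to 3′ on the strand of the gene. Capitals mark the only match found to any of the 3 patterns searched on both strands of the 250 bases before and 50 bases after the start. The patterns were TTCNNNGAA for STAT, TTGCNNAA for C/EBP and GGNNNTTCC for NF-kB, with N for any base, and no matches overlapped.
Saa1 (chr7:46742981-46743230, minus strand): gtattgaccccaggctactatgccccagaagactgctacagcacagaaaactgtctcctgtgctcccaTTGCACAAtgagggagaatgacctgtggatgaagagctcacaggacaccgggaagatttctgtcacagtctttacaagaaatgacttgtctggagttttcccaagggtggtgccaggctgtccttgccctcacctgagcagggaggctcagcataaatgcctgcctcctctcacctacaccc
Saa2 (chr7:46751583-46751832, plus strand): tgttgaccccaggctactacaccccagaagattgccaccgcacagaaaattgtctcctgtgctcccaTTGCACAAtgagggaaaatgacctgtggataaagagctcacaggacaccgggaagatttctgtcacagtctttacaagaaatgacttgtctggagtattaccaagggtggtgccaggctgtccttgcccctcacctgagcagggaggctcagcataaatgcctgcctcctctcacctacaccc
Lcn2 (chr2:32387740-32387989, minus strand): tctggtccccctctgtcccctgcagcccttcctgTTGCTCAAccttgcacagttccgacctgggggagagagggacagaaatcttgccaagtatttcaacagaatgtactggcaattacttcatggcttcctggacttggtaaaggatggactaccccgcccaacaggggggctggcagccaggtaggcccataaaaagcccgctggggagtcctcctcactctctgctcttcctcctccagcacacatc
The C/EBP letters began at -182 in Saa1, -183 in Saa2 and -216 in Lcn2, counted from the start site, and stand in 10.8% of the 32851 promoters in the table. The STAT letters stand in 8.3% and the NF-kB letters in 18.5% of them, and neither is in these 3 windows. Among the 8449 genes tested with a promoter in the table, the shares were 10.7% for C/EBP, 8.3% for STAT and 25.1% for NF-kB. Of the 35 rises, 26 had a promoter in the table, of which 8 held the C/EBP letters, 5 the STAT letters and 3 the NF-kB letters. The Saa1 and Saa2 windows were identical at 287 of 299 aligned bases. A match is a description of the letters and no evidence of binding. The lack of a match to these exact letters does not show that a window holds no other site for these factors.

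Saa1 stood at 79.33, 57.92 and 49.05 FPKM in control replicates 1, 2 and 3, and at 4454.1, 468.05 and 4029.83 FPKM in L.J. replicates 1, 2 and 3. Every L.J. library lay above every control library, and L.J. replicate 2 was the lowest of the 3 by a wide margin. The means were 62.1 ± 15.6 and 2980 ± 2190 FPKM (SD, n = 3), with a log2 fold change of 5.04 ± 0.72 (SE) at an adjusted p of 0.0161. Saa2 gave the same order in the L.J. libraries, at 64.65, 26.6 and 28.47 FPKM in the controls and 4327.32, 342.88 and 3625.59 FPKM with L.J., with a log2 fold change of 5.54 ± 0.95 at an adjusted p of 0.0407. Saa1 and Saa2 are close copies, so reads may have been shared between them and their values are not independent. Lcn2 stood at 16.99, 3.56 and 4.33 FPKM in the controls and at 1409.67, 65.45 and 912.24 FPKM with L.J., with a log2 fold change of 5.86 ± 1.1 at an adjusted p of 0.0496.

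Lcn2, Saa1 and Saa2 were the called members among 37 positive acute-phase proteins tested, out of 39 in the list. All 3 were rises, and over all genes 0.334% were called as rises. The median log2 fold change of the list was 1.19, against 0.17 for all genes, and 1.05 after median scaling. In 21 of the 37, or 56.8%, the L.J. values lay above all controls, against 18.0% of all genes. The median shift from the control mean was 1.88 in L.J. replicate 1, 0.29 in replicate 2 and 1.62 in replicate 3, so replicate 2 carried little of it. Orm3, an alpha-1-acid glycoprotein, stood at 2.19, 2.23 and 0.74 FPKM in the controls and at 140.29, 7.61 and 97.69 FPKM with L.J., with an adjusted p of 0.0518, just outside the threshold. Fgl1, a fibrinogen-like protein made in the liver, stood at 263.27, 151.3 and 116.63 FPKM and at 1739.8, 350.21 and 2044.75 FPKM, with an adjusted p of 0.0539. Hamp, the iron hormone hepcidin, was below all controls in L.J. replicate 2 at 655.17 FPKM and above them in replicates 1 and 3 at 4746.18 and 7233.17 FPKM, so its groups overlapped. After median scaling 8 members passed, all higher, adding Orm3, Orm2, Mt2, Mt1 and Steap4. Negative acute-phase proteins, which are known to fall in inflammation, had a median of 0.07, turning to -0.14 after median scaling, and 0 of 15 were called.

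Some neutrophil markers had higher values in the libraries where these genes were high, and 0 of the 3 tested were called. S100a8, a calcium-binding protein of neutrophils and monocytes, was at 0.68, 0.18 and 0.16 FPKM in the controls and at 48.83, 1.73 and 25.09 FPKM with L.J., and S100a9 at 1.32, 0.53 and 1.61 FPKM and at 60.71, 4.05 and 36.16 FPKM. Their adjusted p-values were 0.0625 and 0.0522, so neither was called, and S100a8 passed the filter through the L.J. libraries alone, so it had to differ to be tested. The summed FPKM of the 3 tested markers of 8 in the list ran from 7.29 to 8.81 in the controls and from 12.3 to 120 with L.J. The granule gene Ngp, too low for the filter, was at 0, 0.06 and 0.05 FPKM in the controls and at 17.6, 0.55 and 7.37 FPKM with L.J., and Camp was listed at 0 in all controls. Ly6g, a surface marker of neutrophils, was at 6.81, 6.58 and 6.61 FPKM and at 10.26, 6.57 and 6.69 FPKM, so its groups overlapped. The part of neutrophils in the change of Lcn2 was not tested, and in whole liver RNA a change in the number of cells of a type cannot be told apart from a change in RNA per cell.

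Genes that female mouse livers express more than male livers were among the largest rises. Sult3a1, a sulfotransferase (chr10:33851020-33879475), stood at 0.09, 0.14 and 2.63 FPKM in the controls and at 60.2, 55.96 and 901.21 FPKM with L.J. Its log2 fold change was 6.47 ± 0.89 and its adjusted p 0.0152, and unlike the acute-phase genes it was as high in L.J. replicate 2 as in replicate 1. Slc22a26, of a family of organic ion transporters, rose from a mean of 1.41 ± 1.78 to 78.6 ± 66 FPKM (SD, n = 3). Cyp2b13, a cytochrome P450, stood at 0.11, 0.59 and 0.31 FPKM in the controls and at 17.92, 2.96 and 47.42 FPKM with L.J. Slc22a26 and Cyp2b13 passed at an adjusted p of 0.0496. Cyp2b13 and Jchain passed the filter through the L.J. libraries alone, so these had to differ to be tested at all.

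Sult3a1, Slc22a26 and Cyp2b13 were among the 4 called members of the 32 female-biased genes tested, out of 56 in the list. All 4 were rises, against 0.334% of all genes, and 6 of the 32 passed the filter through the L.J. libraries alone. The list's median was 1.1, or 0.92 after median scaling, with 29 of 32 members higher and 14 (43.8%) higher without overlap, against 0.17 and 18.0% for all genes. Its median shift was 1.23, 0.47 and 2.17 in L.J. replicates 1, 2 and 3. Of 57 male-biased genes tested, 52 were lower and 0 were called, at a median of -1.46. After median scaling the median was -1.66, and Cspg5 and Cyp8b1 passed as lower. Cspg5 passed the filter through the control libraries alone, so it had to differ to be tested. The median shift of the male-biased genes was -1.81 in L.J. replicate 1 and -2.61 in replicate 3, and -0.01 in replicate 2, which did not share the lower values. The same split held in the Mup genes, at -4.08, -0.08 and -7.56. Cyp8b1, the sterol 12-alpha-hydroxylase of bile acid synthesis, is in the male-biased list and stood at 213.68, 133.81 and 165.61 FPKM in the controls and at 27.2, 93.68 and 36.18 FPKM with L.J., with an adjusted p of 0.0518, and of 0.0465 after median scaling. Socs2, an inhibitor of growth hormone signalling, is also in the male-biased list but was higher in every L.J. library. It stood at 5.63, 12.33 and 8.62 FPKM in the controls and at 25.3, 18.77 and 48.2 FPKM with L.J., with an adjusted p of 0.0568. In that list 5 of 57 genes were higher, 2 (3.51%) without overlap against 18.0% of all genes, and 10 (17.5%) were lower without overlap against 2.89%.

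The 8 falls were smaller in size and more even across the L.J. libraries than the rises above. Prkd3, protein kinase D3 (chr17:78949405-79020816), had the smallest adjusted p of all genes, 0.00854. It stood at 26.81, 24.48 and 29.09 FPKM in the controls and at 11.44, 12.97 and 9.74 FPKM with L.J., so no L.J. library came near the control range. Its log2 fold change was -1.17 ± 0.12, and it passed in 5 of the 6 fits with a library left out, with a largest adjusted p of 0.051.

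Angptl4 (chr17:33774900-33781575), induced by fasting and PPARA and known to block lipoprotein lipase, was the largest fall. It stood at 37.13, 59.98 and 33.88 FPKM in the controls and at 8.92, 12.86 and 12.63 FPKM with L.J., a log2 fold change of -1.81 ± 0.27 with an adjusted p of 0.0174. Etnppl, which breaks down phosphoethanolamine, stood at 32.1, 41.34 and 41.71 FPKM and at 13.42, 16.54 and 17.34 FPKM, a log2 fold change of -1.23 ± 0.16 with an adjusted p of 0.0152. Both were low in all 3 L.J. libraries. Ndrg1, known as a gene induced by hypoxia and differentiation, stood at 12.79, 10.61 and 13.29 FPKM and at 4.64, 5.82 and 5.42 FPKM, a log2 fold change of -1.07 ± 0.14. Serpina5, the protein C inhibitor, fell from 2.53 ± 0.29 to 0.717 ± 0.339 FPKM, and Neb, the giant muscle protein nebulin, from 1.81 ± 0.497 to 0.52 ± 0.165 FPKM (SD, n = 3). Serpina5 and Neb passed the filter through the control libraries alone. Rnf152, a ubiquitin ligase of the lysosome, and Tle1, a transcriptional corepressor, fell by 0.62 and 0.59 on the log2 scale. All 8 fell further after median scaling, with Prkd3 at -1.37 and Angptl4 at -2.01. That scaling took out the upward shift of all genes, so larger falls follow from it and add no support.

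**Figure D2:**
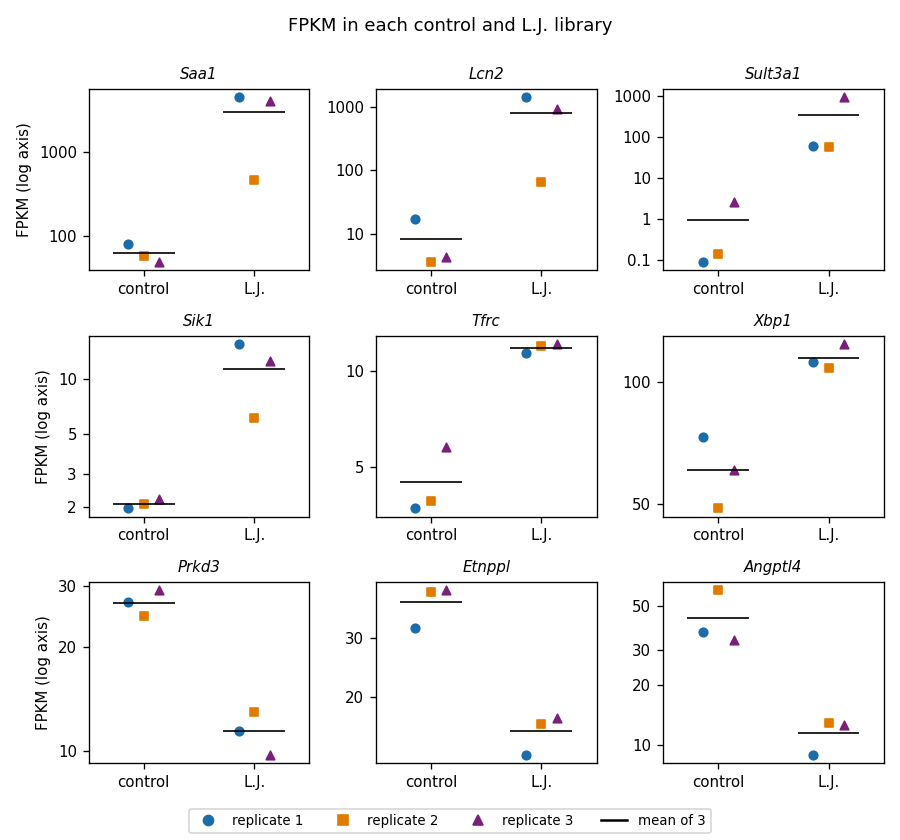
FPKM on a log axis of 9 called genes in each control and L.J. library, with 1 point per library and a line at the mean of 3. For Saa1, Lcn2 and Sik1, L.J. replicate 2 lies below replicates 1 and 3, while for Tfrc, Xbp1, Prkd3, Etnppl and Angptl4 the 3 L.J. libraries lie close together.

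Among the rises, a second set was more even across the 3 L.J. libraries. Tfrc, the transferrin receptor that brings iron into cells (chr16:32608896-32632794), stood at 3.72, 3.93 and 5.8 FPKM in the controls and at 11.45, 11.99 and 12.21 FPKM with L.J. The L.J. values were close together, and the log2 fold change was 1.25 ± 0.16 with an adjusted p of 0.0152. B4galt1, which adds galactose to glycans in the Golgi, stood at 9.13, 9.1 and 8.65 FPKM and at 25.92, 21.15 and 27.46 FPKM, a log2 fold change of 1.37 ± 0.19 with an adjusted p of 0.0152. Slc20a1, a sodium-phosphate cotransporter, rose from 4 ± 0.341 to 8.47 ± 1.51 FPKM, and Slc41a2, a magnesium transporter, from 9.21 ± 0.626 to 21 ± 4.63 FPKM (SD, n = 3). Pdlim1, which binds the actin cytoskeleton, stood at 15.4, 12.39 and 12.38 FPKM and at 28.93, 28.87 and 25.4 FPKM. Nampt, the rate-limiting enzyme of NAD salvage, rose from 9.33 ± 0.301 to 19.5 ± 2.66 FPKM (SD, n = 3).

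Xbp1, a transcription factor of the unfolded protein response and of secretory cells, stood at 72.98, 48.83 and 60.69 FPKM in the controls and at 111.89, 108.47 and 124.11 FPKM with L.J. Its log2 fold change was 0.92 ± 0.17 with an adjusted p of 0.0496. Sik1, a kinase that restrains the coactivators of CREB and is induced by cAMP, stood at 1.96, 2.08 and 2.2 FPKM and at 15.51, 6.09 and 12.5 FPKM. Its log2 fold change was 1.92 ± 0.25 with an adjusted p of 0.0152. In the fasting, glucocorticoid and cAMP list, 2 of 33 tested genes were called, against 0.411% of all genes. They were Sik1, which rose, and Angptl4, which fell. B3galt1, another galactosyltransferase, rose by 0.79 ± 0.13 with L.J. and had an adjusted p of 0.0385, but of 0.0849 after median scaling. Mybbp1a, a nucleolar protein, stood at 11.11, 10.82 and 10.96 FPKM and at 16.82, 17.7 and 18.07 FPKM, a log2 fold change of 0.63 ± 0.11, with an adjusted p of 0.0744 after median scaling. Jchain, which joins polymeric antibodies in plasma cells, stood at 0.82, 0.59 and 0.57 FPKM and at 24.86, 3.35 and 26.73 FPKM, and Mzb1, another plasma cell gene that the filter removed, at 0.33, 0.25 and 0.06 FPKM and at 4.98, 0.35 and 5.37 FPKM. Jchain passed at an adjusted p of 0.044, and the summed FPKM of the 2 tested markers of 5 for B and plasma cells ran from 1.49 to 1.81 in the controls and from 5.31 to 28.6 with L.J.

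For each called gene the shift of L.J. replicate 2 was set against the mean shift of replicates 1 and 3. It was 75% of that mean or more in 22 genes, between 50% and 75% in 12 and under 50% in 9. Saa1, Saa2, Lcn2, Slc22a26, Cyp2b13, Jchain, Cpne8, Nrbp2 and Ell made up the last set, at 47.9% for Saa1 and 34.7% for Jchain. In the first set, Tfrc stood at 101%, Pdlim1 at 109%, Etnppl at 91.4% and Xbp1 at 87.7%. The remaining rises were Prg4, the lubricant proteoglycan 4, Syne4, a nuclear envelope protein, Ifitm2, an interferon-induced membrane protein, Mtss1, Trmt13, a tRNA methyltransferase, Ezr, which links actin to the membrane, Plp2, Tppp, Zfp609, Gng11, Tacc1, Rgs10, Gimap8 and Morc2a. Their log2 fold changes ran from 0.63 for Morc2a to 2.22 for Prg4. Of these, Prg4, Mtss1, Tppp, Zfp609, Gng11 and Tacc1 did not pass after median scaling, with adjusted p-values in limma from 0.0505 to 0.0734.

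**Figure D3:**
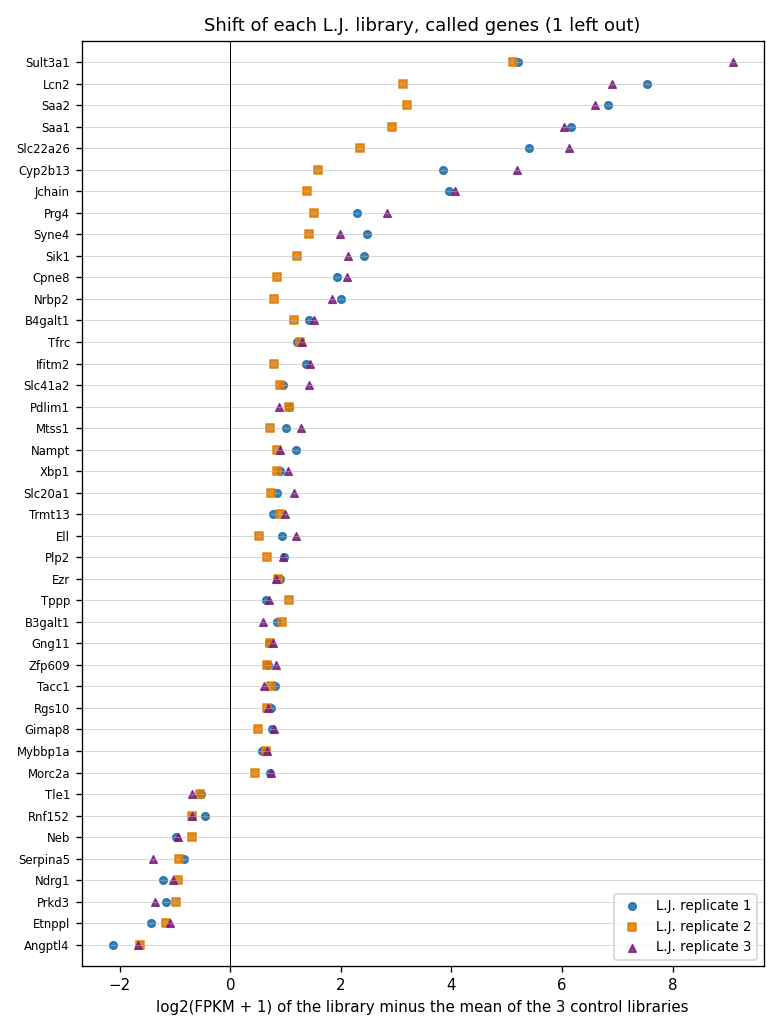
Shift of each L.J. library from the mean of the 3 control libraries on log2(FPKM + 1), for the called genes in order of their fold change, leaving out 1 of the 43. Squares, which mark L.J. replicate 2, fall short of the other marks for Saa1, Saa2, Lcn2 and Jchain and sit among or beside them for Tfrc, Pdlim1 and Ezr.

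Some gene groups had median shifts of 1 sign in all 3 L.J. libraries. Over all genes 0.411% were called, so lists of this size would mostly hold no call at that share. A count of 0 or 1 called in any list here therefore says little about its members. The median shift over all genes was 0.26, 0.03 and 0.22 in L.J. replicates 1, 2 and 3, and the shifts of a list are given with and without it. Of 36 ribosome biogenesis genes tested, 35 were higher and 22 (61.1%) higher without overlap, against 18.0% of all genes, and 0 were called. The median was 0.44, or 0.26 after median scaling, with median shifts of 0.32, 0.39 and 0.53 in L.J. replicates 1, 2 and 3, or 0.06, 0.37 and 0.31 less that of all genes, so replicate 1 was close to its own all-gene median. Nop58, a core protein of box C/D nucleolar particles, stood at 7.61, 7.83 and 9.57 FPKM and at 11.19, 17.3 and 19.15 FPKM, with an adjusted p of 0.0518. Of 36 genes of the unfolded protein response and ER chaperones, Xbp1 alone was called, 30 were higher and 16 (44.4%) higher without overlap. Their median was 0.45, or 0.24 after median scaling, with shifts of 0.33, 0.28 and 0.66, or 0.07, 0.25 and 0.44 less that of all genes. The chaperone Calr stood at 569.18, 611.34 and 611.53 FPKM in the controls and at 992.76, 969.49 and 935.8 FPKM with L.J., an adjusted p of 0.0668.

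Cytosolic ribosomal protein genes behaved otherwise across libraries. Of 53 tested, 52 were higher, at a median of 0.37 or 0.15 after median scaling, but the shift was 0.55 and 0.52 in L.J. replicates 1 and 3 and -0.01 in replicate 2, or 0.29, 0.30 and -0.04 less that of all genes. Immediate early genes, the first to respond to a stimulus, had the same split, at 0.94, -0.15 and 0.82, with 0 of 19 called. Kupffer cell markers, of the liver's resident macrophages, stood at 1.27, 0.04 and 1.11. Chemokine and adhesion genes stood at 1.2, 0.1 and 0.87, with 0 of 15 called.

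Some metabolic groups lay on the lower side. All 44 nuclear-encoded oxidative phosphorylation genes lay below the median fold change of all genes, and 40 were lower than in controls, with 0 called. Their median was -0.19, or -0.40 after median scaling, with shifts of -0.14, -0.15 and -0.19 in L.J. replicates 1, 2 and 3, or -0.40, -0.18 and -0.41 less that of all genes. It was -0.06 without control replicate 1. Cox5b, a subunit of cytochrome c oxidase, stood at 250.51, 209.5 and 228.59 FPKM and at 179.81, 181.87 and 164.31 FPKM, with an adjusted p of 0.134, and of 0.0446 after median scaling. In the PPARA and fatty acid oxidation list, 30 of 41 were lower, 11 (26.8%) without overlap against 2.89% of all genes, and Angptl4 was the 1 called member. The median was -0.24, -0.45 after median scaling and -0.03 without control replicate 1. Ppara itself, the nuclear receptor that drives this programme, stood at 30.22, 29.53 and 33.91 FPKM and at 25.2, 23.84 and 20.86 FPKM, with an adjusted p of 0.102, and of 0.0426 after median scaling.

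Bile acid genes lay on both sides of the controls. Of 21 synthesis genes, 13 were lower, 6 (28.6%) without overlap against 2.89% of all genes, 2 (9.52%) were higher without overlap against 18.0%, and 0 were called, at a median of -0.16, -0.37 after median scaling and -0.04 without control replicate 1. Amacr, a racemase of side-chain shortening, stood at 83.66, 79.91 and 88.45 FPKM and at 56.67, 62.62 and 56.54 FPKM, with an adjusted p of 0.0805 and of 0.0394 after median scaling. Of 17 bile acid and organic anion transport genes, 8 were higher and 9 lower, and 0 were called. Without overlap, 3 (17.6%) were higher, near the 18.0% of all genes, and 3 (17.6%) lower, against 2.89% of all genes. In that list the phospholipid exporter Abcb4 stood at 48.28, 51.92 and 46.66 FPKM and at 30.87, 32.28 and 30.05 FPKM, with an adjusted p of 0.0565 and of 0.0204 after scaling. Cyp7a1, the rate-limiting enzyme of bile acid synthesis, stood at 10.96, 16.97 and 15.5 FPKM and at 15.52, 13.42 and 42.59 FPKM, so its groups overlapped.

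**Figure D4:**
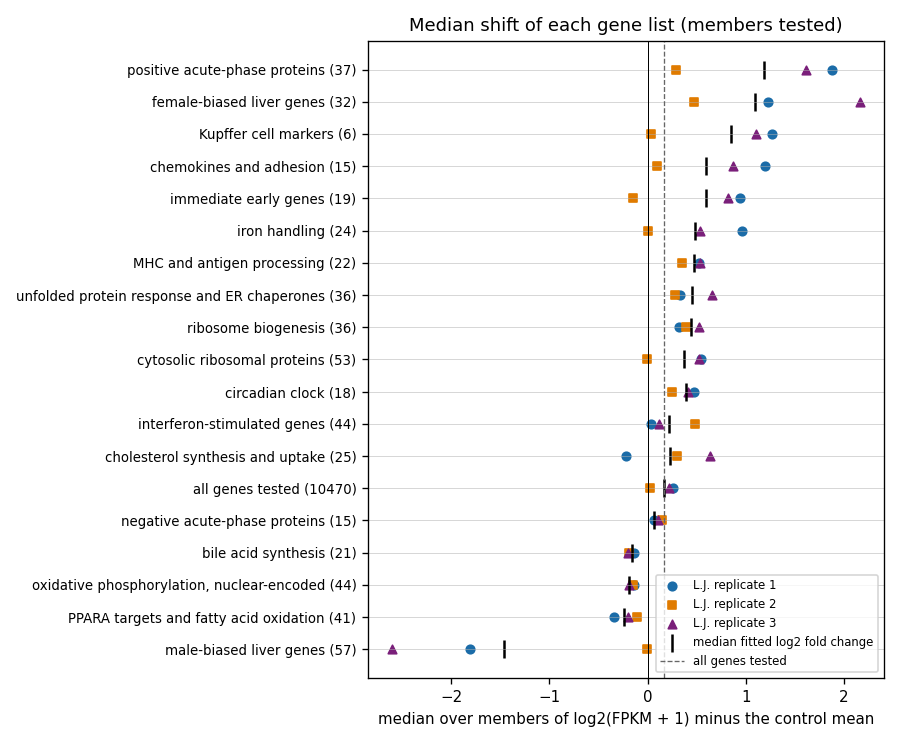
Median over the tested members of each gene list of the log2(FPKM + 1) shift from the control mean, for each L.J. library, with the median fitted log2 fold change as a bar and the number of members tested in parentheses. The shifts include that of all genes, which differs between the libraries (0.26, 0.03 and 0.22), and the 3 libraries lie far apart for acute-phase proteins, male-biased genes and immediate early genes, where L.J. replicate 2 is nearest to 0.

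Markers of liver cell types were checked from the same table. Hepatocyte markers had the highest levels, with a summed FPKM of 34200 to 52000 in the controls and 28400 to 45500 with L.J., a median log2 fold change of 0.01 (-0.20 after median scaling) and 0 of 6 called. Summed Kupffer cell markers ran from 48.6 to 105 FPKM in the controls and from 74.2 to 184 FPKM with L.J., with 6 of 6 higher and 0 called. Sinusoidal endothelial markers ran from 34.8 to 58.7 and from 39 to 78.7 FPKM, and stellate cell and fibroblast markers from 57.2 to 108 and from 64.7 to 149 FPKM, with 0 of 6 called in each. The T cell, adipocyte, kidney and muscle markers had no member past the filter, and Lep, Plin1 and Slc12a1 were listed at 0 in all 6 libraries. Cela1, the pancreatic elastase that is the 1 tested member of 6 acinar markers, stood at 24.3, 13.87 and 16.68 FPKM and at 4.23, 7.73 and 2.02 FPKM, with an adjusted p of 0.0518, while Prss2 was listed at 0 in all 6. The globin genes varied within groups, with Hba-a1 at 1406.69, 270.18 and 330.16 FPKM in the controls and at 319.62, 788.45 and 656.67 FPKM with L.J. The part of blood or immune cells in the shifts of the lists was not tested.

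The libraries with busulfan give a second L.J. contrast that shares no library with this one. Busulfan is a DNA-alkylating drug that depletes bone marrow. Of the 43 called genes, 39 had the same sign there and 42 a smaller change, with a median log2 fold change of 0.26 against 1 for the rises and of -0.22 against -1.06 for the falls. These genes were chosen for their change without busulfan, so a smaller value with it is not a result on its own. Angptl4 was the exception in size, at 58.48, 27.86 and 40.62 FPKM with busulfan and at 10.83, 9.37 and 11.92 FPKM with both. Prkd3 stood at 27.01, 24.65 and 22.32 FPKM and at 16.11, 15 and 15.96 FPKM. Neither passed in that contrast, with adjusted p-values of 0.205 for Angptl4 and 0.509 for Prkd3, although in both genes the groups did not overlap. Saa1 stood at 151.53, 75.89 and 90.23 FPKM and at 92.16, 121.42 and 271.83 FPKM, so its groups overlapped. Over all genes tested the fold changes of both contrasts correlated at 0.263, a correlation across genes, which are not independent replicates.

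The difference between both L.J. contrasts, the interaction with busulfan, was tested in the same model. With limma, 0 genes passed, 688 stood under an unadjusted p of 0.05, and the smallest adjusted p was 0.319. That p belonged to Ndrg1, at 11.68, 9.93 and 10.58 FPKM with busulfan and at 10.49, 14.65 and 13.69 FPKM with both, against its fall with L.J. alone. After median scaling Ndrg1 passed at an adjusted p of 0.0334, and without L.J. replicate 2 the count was 296. B3galt1, Zfp868, Socs2, Sult3a1 and Zfp609 had the next smallest p-values. Sult3a1 was at 0.29 FPKM or lower in the busulfan libraries and at 0, 0.22 and 2.14 FPKM with both, so the high level seen with L.J. alone was not seen there.

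**Figure D5:**
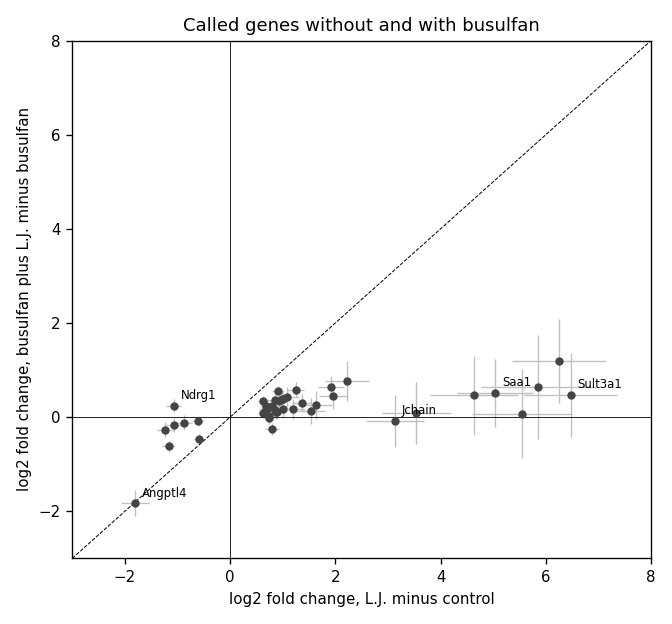
Fitted log2 fold change of L.J. with busulfan (y axis) against that without it (x axis) for the 43 called genes, with bars of 1 SE. The dashed line marks equal change, on which Angptl4 lies, while Sult3a1, Saa1 and Jchain lie well below it.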

How the data were processed

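The deposited table gives FPKM per gene, with values to the second decimal and no counts, so depth is unknown. Per the submitters' processing notes, the authors aligned reads with Bowtie 0.12.2 to mm10. The quantifier is not given in the sources used here. Gene IDs matched RefSeq (GRCm38.p6) for 20841 of 21004 genes, and 26 symbols stored as dates were restored.

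Genes with at least 1 FPKM in 3 or more of the 6 libraries compared were tested, and 10534 were not. For 59 genes the L.J. libraries alone met this, and for 14 the control libraries alone. The third-highest value lay between 1 and 1.1 FPKM in 177 genes and between 0.9 and 1 FPKM in 203 left out. On log2(FPKM + 1), which understates the change of low genes, limma 3.58.1 (R 4.3.3) fitted 4 group means to all 12 libraries, with 8 residual degrees of freedom and eBayes with trend. Tests were two-sided with Benjamini-Hochberg adjustment over 10470 genes. The script was tested on simulated data. An exact permutation test of 3 against 3 cannot go below 0.1 and was not used.

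The comparison and the 54 gene lists (1127 genes, 949 tested) were chosen with earlier results of these data known. Named genes are up to 12 rises and 12 falls with a mean of at least 5 FPKM, up to 4 per list by p, cell type markers and 6 by interaction. Genes named beyond that rule, including the other called genes, were chosen after their values were seen. For 1 called gene and 1 list member, values are not reported here. Alternatives were other pseudocounts, filters, scalings, variance settings, library sets and weights, and a replicate block.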

Additional observations from a re-analysis of the deposited data

How the results depend on the processing

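The count of 43 genes (35 higher, 8 lower) changed with most settings. No called gene changed direction, but in all 43 the L.J. and control values did not overlap. Only the scalings could therefore have reversed a sign, and the other settings were no test of direction. Of 846 values of called genes under alternatives, 430 stayed past the threshold and 416 did not. Counts (higher, lower) were 29 (22, 7) with a pseudocount of 0.1 and 26 (19, 7) with 0.01. They were 11 (7, 4) with no filter, 32 (27, 5) at 5 FPKM or more, and 27 (21, 6) with the filter on all 12 libraries. Scaling gave 114 (47, 67) by the median, 66 (29, 37) by quantiles and 90 (39, 51) with the Mup genes removed. Robust eBayes gave 25 (19, 6) and the 6 libraries alone 0 (0, 0), with 1570 under an unadjusted p of 0.05. Library weights gave 5519 (4684, 835), but their estimation did not converge and ran from 0.211 for L.J. replicate 2 to 22.2 for control replicate 3. With L.J. replicates 1 and 3 left out, replicate 2 stood alone, was assumed to vary like the other groups, and gave 7 (6, 1). Leaving out 1 library gave from 1 to 1755 calls, from 1 to 1508 higher and from 0 to 247 lower. The interaction had 1 call after median scaling, 1832 with library weights, and from 0 to 296 with 1 library left out. Same-numbered control and L.J. libraries deviated together at 0.397, 0.146 and -0.072, and L.J. replicate 2 correlated best with control replicate 3. Whether a shared number marks a shared batch was not tested. The replicate block gave 31 (25, 6). Of 1038 list medians, 911 moved by less than the spread between replicates. Several settings, such as robust eBayes and the replicate block, left every fold change as it was, so those medians could not move. The spread between the L.J. replicates was also wide, so this count says little about stability. FPKM without counts gives no limit for counting error.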

Other observations

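Further lists gave values that fall under no heading above. Metallothionein and zinc genes had 0 of 8 called, with Mt1 at 29.84, 23.67 and 15 FPKM in the controls and at 2466.03, 97.92 and 1342.8 FPKM with L.J. (adjusted p 0.0518). In the iron list, Tfrc and Lcn2 were called among 24 tested, both as rises, against 0.334% of all genes. There Steap3, which reduces iron in endosomes, stood at 10.57, 12.46 and 11.68 FPKM and at 18.5, 18.08 and 16.18 FPKM (adjusted p 0.0742). Of 18 circadian clock genes 0 were called. Per2 stood at 2.1, 1.25 and 1.8 FPKM and at 4.67, 8.34 and 3.31 FPKM (adjusted p 0.052), while Nr1d1 overlapped at 14.08, 85.55 and 73.94 FPKM and at 12.56, 5.21 and 42.5 FPKM. Control replicate 1 thus stood apart from the other controls in Nr1d1, and also in Per1 at 0.89 FPKM against 10.43 and 4.11 FPKM.

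Interferon-stimulated genes had a larger median shift in L.J. replicate 2, at 0.48, against 0.04 and 0.12 in replicates 1 and 3, with 0 of 44 called. MHC and antigen processing genes had median shifts of 0.53, 0.35 and 0.54, with 0 of 22 called, and their median was 0.47 or 0.29 after median scaling. Cd74, the invariant chain, stood at 51.31, 17.14 and 19.96 FPKM and at 60.84, 63.42 and 112.11 FPKM (adjusted p 0.0791). In fatty acid and triglyceride synthesis, 0 of 24 were called, at a median of 0.19 that turned to -0.02 after median scaling. Cholesterol synthesis and uptake genes differed between L.J. replicates 1, 2 and 3, at median shifts of -0.22, 0.3 and 0.64, with 0 of 25 called.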
